A study of Mus musculus with 6 samples.

Results

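The cells described here are CD45+ CD11b+ cells of mouse visceral fat that carried RNA of Plac8 or Ms4a4c, a pair of genes known as monocyte markers. They were chosen from the counts themselves. A member held at least 3 unique molecular identifiers (UMIs, 1 per captured RNA molecule) of Plac8 and Ms4a4c together. It also stayed under limits on other genes: Ear2 under 3, Cd209a under 3, the resident macrophage genes Cd209f, Cd209g, Cd209d and Cd163 together under 4, the lipid-associated genes Gpnmb, Mmp12, Rnf128, Cpe and Atp6v0d2 together under 8, the lymphocyte genes Cd3e, Cd3d, Cd3g, Cd79a and Cd79b together under 3, and the collagen genes Col3a1 and Col1a2 together under 6. The rule found 69 of 2114 kept cells. They are called Plac8/Ms4a4c cells here, because monocyte genes were found in only some of them.

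The series profiled single cells of epididymal fat from mice of a high-fat diet group (HFD, 3 samples) and a control diet group (Control, 3 samples), to ask how long-term obesity changes the myeloid cells of that tissue. Fat was digested with collagenase and sorted for cells with both CD45, the surface marker of leukocytes, and CD11b, an integrin of myeloid cells. The labels give no strain, age or time on the diet for either group, and do not say whether each sample came from 1 animal or several. The p-values below therefore rest on the spread among these 3 samples a diet, part or all of which may be technical.

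Monocytes leave the bone marrow, circulate in the blood and enter tissues, where they can become macrophages or cells with features of dendritic cells. In the mouse, classical monocytes carry Ly6C and the chemokine receptor CCR2, while nonclassical monocytes are low in both and patrol vessel walls. In obesity, CCR2-dependent recruitment of monocytes is known to feed the macrophages that gather in visceral fat.

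The 6 samples held between 4477100 and 6992602 UMIs each. Their 5511 barcode entries came from 2195 distinct barcodes, of which 1082 were listed in several samples, and each barcode was counted only in the sample where it had most UMIs. Of the 69 Plac8/Ms4a4c cells, 37 had a barcode listed in several samples: 1, 5 and 5 cells in HFD 1, 2 and 3, against 8, 12 and 6 cells in Control 1, 2 and 3. The UMIs summed over the Plac8/Ms4a4c cells of a sample were 90479, 85011 and 94425 in HFD 1, 2 and 3, against 120282, 128993 and 61557 in Control 1, 2 and 3. Each sum rests on 9 to 13 cells. Levels below are CPM, each gene's UMIs scaled to a common total of the sum they belong to, so 1 UMI is worth between 7.75 and 16.2 CPM. In a sum, fewer cells with a gene and less of its RNA per cell cannot be told apart. Other kept cells serve for comparison in 2 sets: 1717 other myeloid cells, which are all kept cells under the lymphocyte and collagen limits that were not members, and 28 Ear2 neighbours, which met every part of the rule except the limit on Ear2 and are counted among the other myeloid cells too.

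The pair that chose the cells was uneven within them. Both genes were detected in 46 cells, Plac8 alone in 14 and Ms4a4c alone in 9. Plac8, a small cysteine-rich protein of immune cells, stood at 973, 1141 and 932 CPM in HFD 1, 2 and 3, against 790, 1698 and 1592 CPM in Control 1, 2 and 3. Ms4a4c, a membrane-spanning protein of the MS4A family, stood at 343, 518 and 222 CPM in HFD, against 607, 620 and 634 CPM in Control. The HFD and Control values of Plac8 overlapped, while all 3 HFD values of Ms4a4c lay under all 3 Control values. These levels are a description, since the pair chose the cells. Of all 2114 cells, 293 had 3 or more UMIs of the pair, and among these 60 were at or over the Ear2 limit, 71 over Cd209a, 52 over the resident genes, 26 over the lipid-associated genes, 39 over the lymphocyte genes and 66 over the collagen genes. Cells just inside the rule, with exactly 3 UMIs, numbered 12, and 0 of them had a UMI of Ly6c2 while 8 had one of Ccr2. Cells just outside it, with 2 UMIs and every limit met, numbered 23, of which 2 had Ly6c2 and 16 had Ccr2. In the 33 Plac8/Ms4a4c cells with 10 or more UMIs of the pair, 21 had Ly6c2 and 26 had Ccr2.

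Monocyte genes were present in a minority of the cells in the case of Ly6c2 and in a majority in the case of Ccr2. Ly6c2, the gene of the Ly6C antigen, had a UMI in 28 of 69 Plac8/Ms4a4c cells (40.6%, exact 95% interval 28.9 to 53.1%), against 80 of 1717 other myeloid cells (4.66%). Ccr2, the receptor for the monocyte attractant CCL2, had one in 51 of 69 (73.9%), against 790 of 1717 (46.0%). Chil3, a secreted chitinase-like protein of classical monocytes, had one in 22 of 69 (31.9%), against 105 of 1717 (6.12%). Pooled over the samples, the median cell held 8009 UMIs among Plac8/Ms4a4c cells and 9056 among other myeloid cells. Medians by sample, given below, lay in opposite order in HFD and Control. With every cell thinned to 3000 UMIs, which left out 5 of the 69, the shares were 31.2% against 2.35% for Ly6c2 and 53.1% against 29.0% for Ccr2. Intervals cover counting error only. Ly6c2 has near-identical relatives, Ly6i among them, and the labels do not say how reads of such copies were assigned, so its level is uncertain.

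Sorted by summed UMIs of small gene sets that were chosen after the data were seen, the 69 cells were a mixture. At least 5 UMIs of Ly6c2 and Chil3 were found in 21 cells, 5, 4 and 2 in HFD 1, 2 and 3, against 3, 5 and 2 in Control 1, 2 and 3. At least 5 UMIs of Ccr2 were found in 26 cells, 11 of them also among those with Ly6c2 and Chil3. At least 50 UMIs of the complement genes C1qa, C1qb and C1qc, made by tissue macrophages, were found in 14 cells: 2, 1 and 6 in HFD, against 3, 2 and 0 in Control. Genes of dendritic cells (Flt3, Zbtb46, Klrd1, Kmo and Dpp4, at least 10 UMIs) marked 6 cells, none of which was in the Ly6c2 and Chil3 set. Genes of nonclassical monocytes (Ace, Treml4, Cx3cr1, Spn and Cd300e, at least 4 UMIs) marked 5 cells. Together with 200 or more UMIs of class II genes, found in 45 cells, and the sets of other lineages given below, more than 1 set applied to 44 cells and none to 4.

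Class II antigen presentation genes divided the cells further. H2-Aa, H2-Ab1, H2-Eb1 and Cd74, which encode the class II molecule and its invariant chain, were 2.17% of all UMIs in the median cell of the 21 with Ly6c2 and Chil3, against 7.77% in the median cell of the other 48. The 6 cells with dendritic cell genes had a median of 11.2%, and other myeloid cells had 4.08%. Among all 69 cells, 13 were under 1% and 38 over 5%. Those under 1% were 3, 3 and 3 cells in HFD 1, 2 and 3, against 2, 1 and 1 in Control 1, 2 and 3. The 3 connective tissue cells described below are among them, and without these the counts were 2, 3 and 1 in HFD, against 2, 1 and 1 in Control, which overlap.

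**Figure D1:**
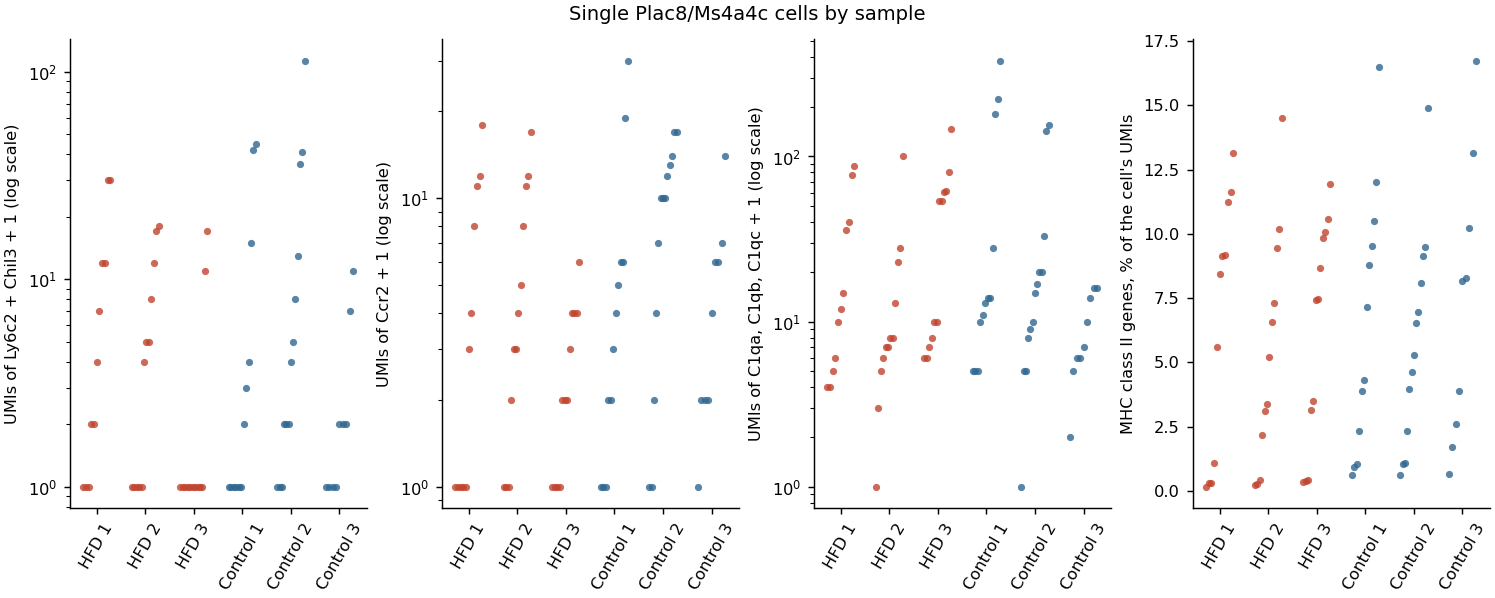
Each point is 1 Plac8/Ms4a4c cell, sorted from low to high within its sample, with HFD samples in red and Control samples in blue; the vertical axes give UMIs plus 1 on a log scale in the first 3 panels and percent of the cell's UMIs in the last. Cells without Ly6c2 and Chil3 stand in all 6 samples beside cells with many such UMIs, and the class II share runs from 0.150% to 16.7%.

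A few cells carried genes of other lineages. In 3 cells, 1 in HFD 1 and 2 in HFD 3, the connective tissue genes Dcn, Gsn and Mgp gave 829, 136 and 348 UMIs. None of the 3 had a UMI of Ptprc, the CD45 gene, or of Il1b. In 2 cells, 1 in Control 1 and 1 in Control 2, immunoglobulin genes gave 433 of 2069 UMIs and 162 of 3557 UMIs. One cell of Control 2 held 195 UMIs of the migratory dendritic cell genes Ccr7, Fscn1, Ccl22 and Ccl17, and also 11 UMIs of the dendritic cell set. Levels without the 3 connective tissue cells and the 2 immunoglobulin cells are given below for named genes whose groups came to overlap without these 5 cells, and for Gsn and Cd63.

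Summed over each list, classical monocyte genes were higher and macrophage genes lower than in other myeloid cells. Taken singly, 5 of the 12 classical monocyte genes were higher in all 6 samples and 1 was lower in all 6. Over the 1240 genes tested for diet below, these shares were 15.4% and 6.94%. The 12 classical monocyte genes summed to 2995, 2823 and 1694 CPM in Plac8/Ms4a4c cells of HFD 1, 2 and 3, and to 3849, 4659 and 2648 CPM in Control 1, 2 and 3. Other myeloid cells had sums of 782, 804 and 884 CPM in HFD and 2339, 2426 and 1653 CPM in Control, lower than in the Plac8/Ms4a4c cells of the same sample in all 6 samples. The 12 macrophage genes ran the other way: between 8470 and 12444 CPM in HFD and between 5897 and 13917 CPM in Control Plac8/Ms4a4c cells, against 29362 to 32689 CPM in HFD and 17099 to 21483 CPM in Control for other myeloid cells. The Ear2 neighbours were close to the Plac8/Ms4a4c cells in both lists, with means of 3112 CPM in Plac8/Ms4a4c cells and 3137 CPM in the neighbours for classical monocyte genes, and 10199 CPM in Plac8/Ms4a4c cells and 10239 CPM in the neighbours for macrophage genes. The 13 nonclassical monocyte genes summed to 1049 to 2082 CPM in HFD and 1497 to 2161 CPM in Control Plac8/Ms4a4c cells, and averaged 4158 CPM in the Ear2 neighbours. Ace and Treml4, both known from nonclassical monocytes, had a UMI in 5 and 8 of 69 Plac8/Ms4a4c cells, and each had one in 16 of 28 Ear2 neighbours. Because the members were chosen from these counts, differences from other cells are descriptions and carry no test.

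Markers of neutrophils, NK cells and T cells were scarce, those of B and plasma cells and of type 2 dendritic cells less so. The 10 type 2 dendritic cell genes averaged 1031 CPM in Plac8/Ms4a4c cells, 988 CPM in other myeloid cells and 449 CPM in the Ear2 neighbours. Of 10 neutrophil genes, Camp and Ngp were at 0 in the sums, and the list reached between 31.8 and 88.4 CPM in HFD and between 0 and 249 CPM in Control. Of 9 genes of NK cells and innate lymphocytes, Gzma, Gzmb, Klrb1c, Nkg7 and Prf1 were at 0. The T cell list, with Trac, Trbc1, Trbc2 and Cd4 at 0, reached 11.8 CPM at most in HFD and 16.6 CPM in Control. The 7 B and plasma cell genes, 1 of them at 0, summed to 155, 435 and 508 CPM in HFD, against 1605, 729 and 162 CPM in Control, and averaged 599 CPM in Plac8/Ms4a4c cells and 625 CPM in other myeloid cells. Cd3e, which the rule limited, was found in 0 of 69 cells, which with an exact interval allows a share of up to 5.21%. Among sorted antigens, Itgam (CD11b) had a UMI in 52.2% and Ptprc (CD45) in 73.9% of the cells, against 57.0% and 71.1% of other myeloid cells.

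**Figure D2:**
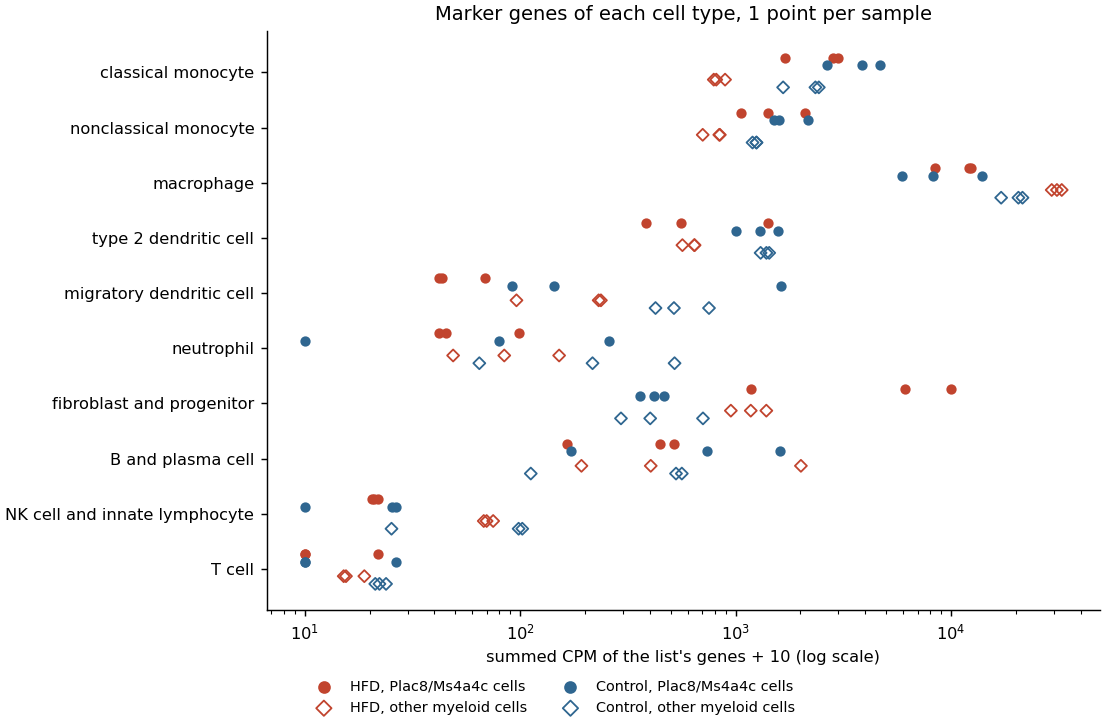
Summed CPM plus 10 of 10 marker lists, on a log axis, with 1 point per sample for Plac8/Ms4a4c cells (filled circles) and other myeloid cells (open diamonds), HFD in red above Control in blue. Plac8/Ms4a4c cells stand to the right for classical monocyte genes and to the left for macrophage genes in every sample, and the connective tissue list reaches 10013 CPM in HFD 1.

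Apart from the rule genes, 12 genes had the largest excess over other myeloid cells among genes of at least 100 CPM that were higher in all 6 samples. Of the 1240 genes tested below, 15.4% were higher in all 6 samples and 6.94% were lower. Ly6c2 led, at 338 CPM on average, against 14.1 CPM in other myeloid cells. The mean log2 difference, with 10 CPM added to each value, was 3.83 ± 0.73 (SD, n = 6). Hp, the hemoglobin-binding acute phase protein haptoglobin, followed with 164 CPM against 18.7 CPM. Sirpb1c, a receptor of the signal regulatory family with near-identical copies, differed by 2.28 on this scale and Thbs1, the matrix protein thrombospondin, by 2.18. The others were Napsa, an aspartic protease, Ifi205 and Mnda, relatives in the interferon-inducible p200 family, Plbd1, a phospholipase-like protein of granules, Ccr2, Irf7, Il1b, the cytokine interleukin 1 beta, and Clec4e, a C-type lectin that senses mycobacterial lipid, between 1.68 and 1.95.

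In the other direction, 8 genes of macrophages were lowest relative to other myeloid cells. Folr2, a folate receptor of resident macrophages, averaged 114 CPM against 669.8 CPM, a mean log2 difference of -2.84. Trem2, the lipid-sensing receptor of lipid-associated macrophages, averaged 107 CPM against 765 CPM, and Retnla, a secreted product of alternatively activated macrophages, 1332 CPM against 6085 CPM. Pf4 and Ccl8, both chemokines, Gas6, a ligand of receptors for dying cells, Fcrls, an Fc receptor-like gene, and Serpinb6a, a protease inhibitor, had differences between -2.53 and -2.36. Of the 12 macrophage markers, 11 were lower in all 6 samples, against 6.94% of the 1240 genes, and C1qa averaged 1056 CPM against 2796 CPM. The rule's limits on resident macrophage and lipid-associated genes bear on this side of the list.

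The shares of Plac8/Ms4a4c cells overlapped between diets. They made up 2.43%, 4.07% and 3.16% of kept cells in HFD 1, 2 and 3 (11 of 453, 12 of 295 and 12 of 380), against 3.09%, 5.00% and 2.66% in Control 1, 2 and 3 (12 of 388, 13 of 260 and 9 of 338). The means were 3.22% in HFD and 3.59% in Control. No test was made, because the rule uses genes that differ between diets and UMI limits that move with depth. Median UMIs of the Plac8/Ms4a4c cells were 8059, 7438 and 7047 in HFD and 10730, 9813 and 7776 in Control. Other myeloid cells had medians of 11480, 11430 and 11210 in HFD and 8294, 6004 and 6567 in Control. The Plac8/Ms4a4c cells were thus shallower than these in every HFD sample and deeper in every Control sample. Among the 1034 cells whose barcode stood in exactly 1 sample, the shares did not overlap: 3.51%, 6.93% and 3.61% in HFD, against 2.29%, 0.901% and 1.79% in Control, on 4, 1 and 3 Control cells. The rule applied to cells thinned to 3000 UMIs gave 3.36%, 2.80% and 2.19% in HFD, against 5.08%, 5.56% and 2.44% in Control, and 42 of its 68 cells were among the 69.

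The main comparison asked which genes differ between HFD and Control within Plac8/Ms4a4c cells. No gene passed the test. Ly6c2, Retnla and the interferon-inducible genes Ifitm3 and Irf7 had their 3 HFD values under their 3 Control values, while Ms4a7 and Cd63 had theirs above. Of the 12 classical monocyte genes 9 were tested, with a median log2 fold change of -0.47. Ly6c2, Fn1 and F13a1 had no overlap with HFD lower, and the other 6, Clec4e (0.50) and Chil3 (0.09) among them, overlapped. The edgeR quasi-likelihood test on UMI sums tested 1240 genes and called 0 at an adjusted p under 0.05 (0% of genes), with 106 genes at an unadjusted p under 0.05 and a smallest adjusted p of 0.0808. DESeq2 called 6 genes, 4 higher and 2 lower in HFD, and edgeR called 21 without HFD 2 and 48 with the rule on thinned counts. In simulated sums of this size, the edgeR test found 25% of genes changed 2-fold and 93% of those changed 4-fold. The values below describe these samples and rest in part on shared barcodes: of the 10 genes with the smallest p, only 5 could be tested among cells whose barcode stood in exactly 1 sample, where the log2 fold change was -2.34 for Retnla and 4.86 for Gsn but -0.22 for Ifitm3, -0.03 for Ccl6 and close to 0 for Fn1. No overlap between the diets was seen for 74 genes with HFD lower (5.97%) and 86 with HFD higher (6.94%).

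Ifitm3, an interferon-induced membrane protein that restricts virus entry, had the smallest p. It stood at 1558, 2129 and 1853 CPM in HFD 1, 2 and 3, against 4373, 3837 and 3574 CPM in Control 1, 2 and 3. All HFD values were under all Control values, with a log2 fold change of -1.09 ± 0.17 (SE, edgeR adjusted p = 0.0808). Ifitm3 fell with HFD in other myeloid cells, by 1.53 ± 0.23 (edgeR adjusted p = 0.00136), and the difference between both changes was 0.37 ± 0.25 (edgeR adjusted p = 0.834).

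Ly6c2 stood at 221, 129 and 169 CPM in HFD, against 565, 636 and 309 CPM in Control. The groups did not overlap, with a log2 fold change of -1.54 ± 0.34 (edgeR adjusted p = 0.221). The largest cell gave 16 of the 47 UMIs in HFD and 40 of the 169 in Control, and Ly6c2 had a UMI in 10 of 35 HFD cells and 18 of 34 Control cells. The HFD cell with 16 UMIs was the only cell of HFD 3 with Ly6c2, so the HFD 3 value rests on 1 cell. That cell also held 23 UMIs of Ly6i. Ccr2 did not separate the diets, at 553, 659 and 201 CPM in HFD, against 565, 814 and 569 CPM in Control. Irf7, a transcription factor induced by interferon, stood at 99.5, 47.1 and 63.5 CPM in HFD, against 391, 225 and 146 CPM in Control (log2 fold change -1.88 ± 0.46, edgeR adjusted p = 0.240).

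Retnla stood at 99.5, 118 and 328 CPM in HFD, against 4764, 1302 and 1381 CPM in Control. Its log2 fold change was -3.76 ± 0.64 (edgeR adjusted p = 0.0808), and 1 cell of Control held 398 of the 826 Control UMIs. Other myeloid cells had 1040 ± 645 CPM of Retnla in HFD and 11130 ± 1962 CPM in Control (SD, n = 3 each), several times the level in Plac8/Ms4a4c cells. How far RNA of other cells contributes to Retnla here was not tested. Ms4a7, an MS4A family member of macrophages, stood at 486, 247 and 307 CPM in HFD, against 108, 93.0 and 97.5 CPM in Control (log2 fold change 1.80 ± 0.34, edgeR adjusted p = 0.147). Cd63, a tetraspanin of late endosomes, stood at 829, 412 and 1324 CPM in HFD, against 266, 240 and 97.5 CPM in Control (2.05 ± 0.48, edgeR adjusted p = 0.221). Without the 5 cells of other lineages, Cd63 stood at 601.5, 412 and 1062 CPM in HFD, against 262, 247 and 97.5 CPM in Control, still without overlap.

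The remaining 5 of the 10 genes with the smallest p had their HFD values on one side as well. Fn1, the matrix protein fibronectin, averaged 286 ± 55 CPM in HFD and 705 ± 217 CPM in Control, and Ccl6, a chemokine of myeloid cells, averaged 1249 ± 333 CPM in HFD and 2520 ± 653 CPM in Control (SD, n = 3 each). Gsn, the actin-severing protein gelsolin, stood at 5294, 859 and 3760 CPM in HFD, against 291, 287 and 357 CPM in Control, and Dcn, the proteoglycan decorin, at 3249, 176 and 1927 CPM in HFD, against 150, 62.0 and 48.7 CPM in Control. Both are genes of connective tissue cells. The list of 8 such genes, with none at 0, summed to 10013, 1165 and 6132 CPM in HFD, against 457, 349 and 406 CPM in Control. Without the 5 cells named above, Gsn stood at 464, 859 and 578 CPM in HFD, against 296, 295 and 357 CPM in Control, and Dcn at 150, 176 and 189 CPM in HFD, against 152, 63.8 and 48.7 CPM in Control, so that the Dcn values overlapped. Gadd45g, a stress-induced growth regulator, stood at 111, 118 and 328 CPM in HFD, against 8.31, 23.3 and 48.7 CPM in Control. Without the 5 cells Gadd45g stood at 37.6, 118 and 35.4 CPM in HFD, against 8.46, 23.9 and 48.7 CPM in Control, and the groups overlapped.

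**Figure D3:**
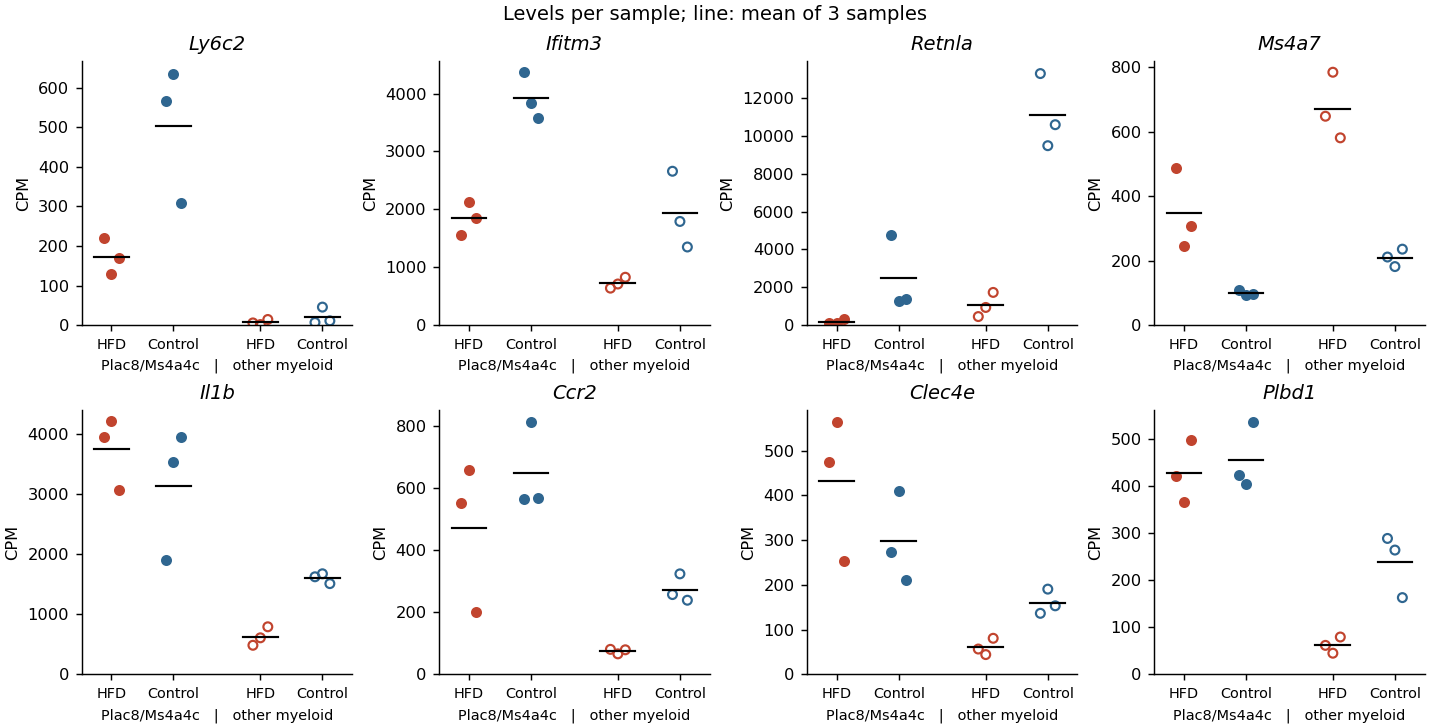
CPM of 8 genes in Plac8/Ms4a4c cells (filled points, left) and other myeloid cells (open points, right), with HFD in red and Control in blue, 1 point per sample and a line at the mean of 3. Ifitm3 and Retnla sit lower in HFD in both kinds of cells, while Il1b and Plbd1 overlap between diets in Plac8/Ms4a4c cells and not in other myeloid cells.

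Over lists of genes by function, chosen with earlier results of these data known, the number of genes under an unadjusted p of 0.05 and the median give a description, and no list member passed edgeR's adjusted threshold. Over all 1240 genes the median log2 fold change was 0.02 and 48.5% were below 0. Groups without overlap made up 5.97% of these genes with HFD lower and 6.94% with HFD higher. Of 30 interferon response genes 12 were tested, 9 with a log2 fold change below 0, with a median of -0.71. No overlap with HFD lower was seen for 4 of them: Ifitm3, Irf7, Ly6e, an antigen of the Ly6 family at 627 ± 92 CPM in HFD and 1081 ± 230 CPM in Control, and Samhd1, a nucleotide-degrading restriction factor. Without the 5 cells of other lineages this was 3 of them, as Samhd1 overlapped at 414, 341 and 248 CPM in HFD, against 549.9, 526 and 406 CPM in Control. Among the other myeloid cells, where 16.8% of all genes tested fell and 14.3% rose, 11 of 29 genes of the list fell and 0 rose. Of 18 interleukin 4 response genes, 2 were used by the rule, Cd209a and Ear2. How far the limits on these bear on the rest of the list was not tested. Of the others 5 were tested, with a median of -1.03, and 3 had no overlap with HFD lower. These were Retnla, the lectin gene Mgl2, at 0, 224 and 21.2 CPM in HFD, against 308, 341 and 325 CPM in Control, and the lectin gene Clec10a.

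Lipid-associated macrophage genes lay the other way. Of 20, 3 were used by the rule, and of the others 15 were tested, 2 with a log2 fold change below 0, with a median of 0.66. No overlap with HFD higher was seen for 5 of them, against 6.94% of all 1240 genes, and for 3 without the 5 cells of other lineages. Trem2 stood at 155, 165 and 169 CPM in HFD, against 24.9, 93.0 and 32.5 CPM in Control (log2 fold change 1.59 ± 0.46, edgeR adjusted p = 0.405). Trem2 in other myeloid cells averaged 1287 ± 125 CPM in HFD and 243 ± 199 CPM in Control (SD, n = 3 each), where 15 of the 20 genes rose and 0 fell. Lpl, the lipase that frees fatty acids from lipoproteins, stood at 663, 553 and 530 CPM in HFD, against 158, 473 and 130 CPM in Control Plac8/Ms4a4c cells, and Cd9, a tetraspanin, at 188, 212 and 265 CPM in HFD, against 108, 140 and 32.5 CPM in Control, both without overlap. Without the 5 cells of other lineages both overlapped, with Cd9 at 113, 212 and 260 CPM in HFD, against 109.97 CPM in Control 1, 119.6 CPM in Control 2 and 32.5 CPM in Control 3, and Lpl at 589, 553 and 484 CPM in HFD, against 152, 486 and 130 CPM in Control. The rule's limit on Gpnmb and 4 other genes of that kind bounds such levels in Plac8/Ms4a4c cells. Of 20 genes of macrophage maturation and complement 14 were tested, with a median of 0.31, among them Cd68, a lysosomal glycoprotein of macrophages, at 716 ± 156 CPM in HFD and 497 ± 65 CPM in Control without overlap. Of 23 lysosome genes 19 were tested, with a median of 0.04, and Ctsb, the protease cathepsin B, had no overlap, with 2329 ± 512 CPM in HFD and 1388 ± 545 CPM in Control.

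Secreted and granule products lay mostly below 0, with 16 of the 23 tested. S100a4, a calcium-binding protein of migrating cells, stood at 398, 999.9 and 614 CPM in HFD, against 1089, 1302 and 1559 CPM in Control, without overlap. F13a1, the coagulation factor XIII subunit known from monocytes and macrophages, stood at 111, 47.1 and 95.3 CPM in HFD, against 191, 155 and 276 CPM in Control, again without overlap. Msrb1, a selenoprotein that repairs oxidised methionine, averaged 194 ± 37 CPM in HFD and 420.0 ± 91.2 CPM in Control (log2 fold change -1.09 ± 0.28, edgeR adjusted p = 0.304). Lyz2, the lysozyme gene of myeloid cells and one of the most abundant, overlapped at 17652 ± 3244 CPM in HFD and 20251 ± 5194 CPM in Control (SD, n = 3 each).

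Within the MS4A family, apart from Ms4a4c, which chose the cells, 4 genes were tested. Ms4a7 lay higher in all 3 HFD samples, as given above, and Ms4a6c, another member known from monocytes, overlapped at 785 ± 209 CPM in HFD and 729 ± 63 CPM in Control. Among the receptors, Csf1r, which binds the macrophage growth factor CSF1, averaged 334 ± 58 CPM in HFD and 410 ± 66 CPM in Control. Emb, an adhesion protein of the immunoglobulin superfamily, had no overlap, with 232, 259 and 106 CPM in HFD, against 274, 357 and 309 CPM in Control. Itgam, the CD11b gene used in the sort, had none either, with 77.4, 82.3 and 106 CPM in HFD, against 125, 132 and 146 CPM in Control (log2 fold change -0.56 ± 0.33, edgeR adjusted p = 0.728).

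Transcription factors of monocytes and macrophages overlapped between diets, with Irf7 as the exception among the 15 tested. Cebpb, which drives inflammatory gene programmes, stood at 2445 ± 466 CPM in HFD and 2179 ± 443 CPM in Control. Spi1, the myeloid master regulator PU.1, averaged 442 ± 139 CPM in HFD and 472 ± 36 CPM in Control, and Nr4a1, known for its need in nonclassical monocytes, 882 ± 348 CPM in HFD and 1066 ± 232 CPM in Control (SD, n = 3 each).

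Other groups showed little or mixed difference. Of 24 inflammatory cytokine and NF-kB genes 21 were tested, with a median of 0.27. Of these, 1 had no overlap with HFD higher and 3 with HFD lower, against 6.94% and 5.97% of all 1240 genes. Ier3, an immediate early survival gene, averaged 173 ± 101 CPM in HFD and 570 ± 340 CPM in Control without overlap. Tlr2, a receptor for bacterial lipoproteins, averaged 164 ± 43 CPM in HFD and 269 ± 75 CPM in Control, also without overlap. Osm, the cytokine oncostatin M, overlapped, with 122, 47.1 and 53.0 CPM in HFD, against 175, 434 and 114 CPM in Control. Of 14 class II presentation genes 10 were tested, with a median of 0.01, and none had groups apart. Of 19 trafficking receptors and adhesion genes 7 were tested (median -0.35), of 21 cytokine receptors 8 (median 0.10), of 24 myeloid transcription factors 15 (median 0.02) and of 26 secreted and granule products 23 (median -0.34). Of 24 nuclear oxidative phosphorylation genes 19 were tested (median 0.07), of 20 glycolysis and hypoxia genes 8 (median 0.15) and of 21 immediate early and heat shock genes 18 (median 0.17).

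A second comparison asked whether the diet difference in Plac8/Ms4a4c cells differed from that in other myeloid cells of the same samples. Il1b, Ptgs2, Clec4e, Plbd1 and Ccr2 fell with HFD in other myeloid cells, and so did the class II genes H2-Aa, H2-Ab1 and Cd74. For diet alone 0 of 1240 genes were called in Plac8/Ms4a4c cells, so a missing call there sets no gene apart. The interaction test in edgeR, with the sample as a block, called 97 of 7781 genes (1.25%), 76 with a higher and 21 with a lower HFD minus Control difference in Plac8/Ms4a4c cells. edgeR uses 1 dispersion per gene here for sums of 9 to 13 cells and of 218 to 343 cells. Limma on the difference between both populations within each sample, an alternative added after seeing the data, tested 1240 genes and called 0. Of these 1240 genes, 157 had an unadjusted limma p under 0.05, and the smallest adjusted p was 0.159. Only 55 of edgeR's 97 calls were among the genes limma tested. On these same counts all 55 had the same sign in limma, and 44 had an unadjusted limma p under 0.05. edgeR called 43 genes among cells with a barcode in exactly 1 sample, 51 without Control 1 and 63 without HFD 1. Diet alone was called in other myeloid cells for 3007 of 9661 genes (31.1%), and for 50.4% of the 1240 genes tested in Plac8/Ms4a4c cells.

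Il1b stood at 3957, 4211 and 3071 CPM in Plac8/Ms4a4c cells of HFD 1, 2 and 3, against 1904, 3535 and 3948 CPM in Control 1, 2 and 3, where the groups overlapped. In other myeloid cells it averaged 626 ± 155 CPM in HFD and 1601 ± 84 CPM in Control (SD, n = 3 each), and fell by 1.46 ± 0.16 on the log2 scale (edgeR adjusted p = 0.000387). The difference between both changes was 1.79 ± 0.27 (edgeR adjusted p = 1.33e-06, limma adjusted p = 0.159), and 1.25 among cells with a barcode in exactly 1 sample (edgeR adjusted p = 0.304). Ptgs2, the prostaglandin synthase COX-2, averaged 298 ± 72 CPM in HFD and 178 ± 103 CPM in Control Plac8/Ms4a4c cells, and 51.3 ± 26.0 CPM in HFD and 156 ± 40 CPM in Control other myeloid cells. Clec4e differed by 2.03 ± 0.36 and Plbd1 by 1.98 ± 0.33 (edgeR adjusted p = 5.97e-05 and 2.28e-05), and Ccr2 by 1.42 ± 0.33 (edgeR adjusted p = 0.00791).

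Of 14 class II presentation genes, 7 were called with a higher difference and 0 with a lower one, against 0.977% and 0.27% of all genes. H2-Ab1, a chain of the class II molecule with near-identical copies, averaged 12688 ± 946 CPM in HFD and 13258 ± 2922 CPM in Control Plac8/Ms4a4c cells. Other myeloid cells averaged 6241 ± 660 CPM of it in HFD and 11343 ± 1440 CPM in Control, where H2-Ab1 fell. Cd74 differed by 0.76 ± 0.20 (edgeR adjusted p = 0.0278). Of 24 inflammatory genes 4 were called higher, Il1b, Il6, Ptgs2 and Clec4e, and of 12 classical monocyte genes 4 were called higher, Ccr2, Fn1, Clec4e and Thbs1, and 1 lower, Clec4d. Of 20 lipid-associated genes, or 17 apart from those the rule used, 4 were called lower, Spp1, Ctsd, Lgals3 and Fabp5. The rule kept cells with many UMIs of lipid-associated genes out of the Plac8/Ms4a4c cells and not out of the other myeloid cells, where such genes rose with HFD, so these differences cannot be told apart from the choice of cells. Lgals3, the lectin galectin-3, averaged 2609 ± 775 CPM in HFD and 2067 ± 164 CPM in Control Plac8/Ms4a4c cells, against 7913 ± 528 CPM in HFD and 2415 ± 1495 CPM in Control other myeloid cells. The rule's limits on Cd209a and Ear2 also applied to the Plac8/Ms4a4c cells only. In other myeloid cells Cd209a averaged 56.8 ± 9.01 CPM in HFD and 305 ± 44.6 CPM in Control. Ear2 averaged 118 ± 39.9 CPM there in HFD and 604 ± 84.8 CPM in Control (SD, n = 3 each). With Ear2 neighbours counted as members, the Il1b difference was 1.84. How far these limits bear on class II genes and Ccr2, and the Cd209a limit on Il1b, was not tested. The other myeloid cells are a mixture whose makeup by cell type was not held fixed between diets, and its part in the differences between both populations was not tested. Median UMIs per cell, given above by sample, were lower in Plac8/Ms4a4c cells in HFD and higher in Control. The part of depth in these differences was not tested either.

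**Figure D4:**
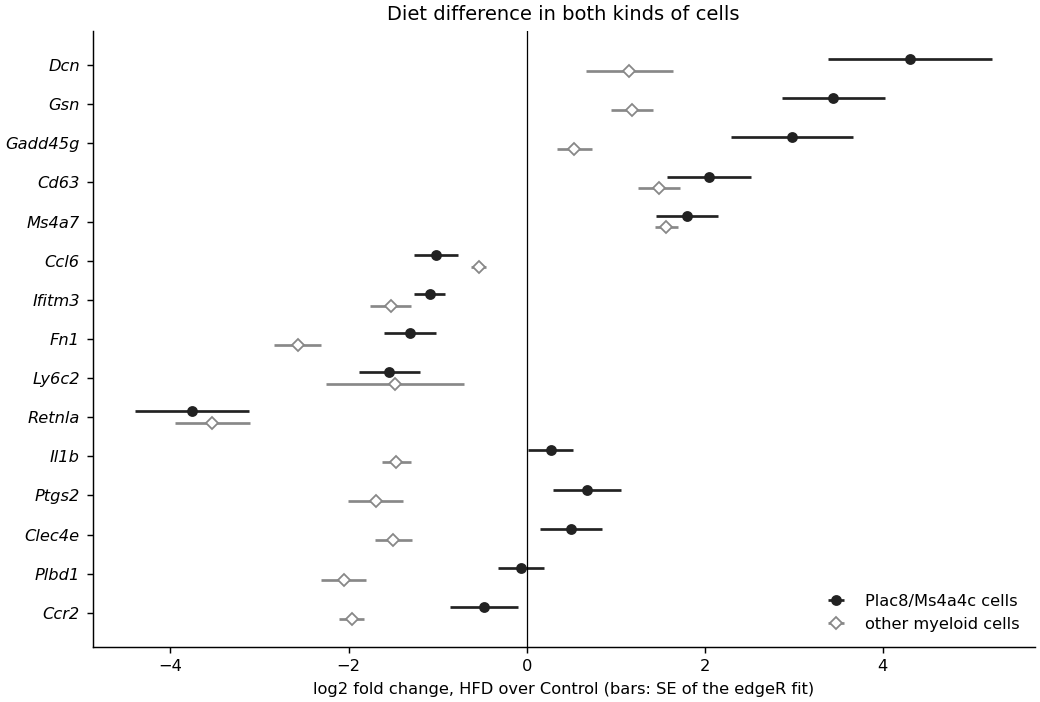
Log2 fold changes of HFD over Control with the SE of the edgeR fit, in Plac8/Ms4a4c cells (filled) and other myeloid cells (open), for the 10 genes with the smallest p in Plac8/Ms4a4c cells and 5 genes of the interaction test. Ms4a7 and Retnla nearly coincide, while Il1b, Ptgs2, Clec4e, Plbd1 and Ccr2 lie between -1.46 and -2.05 in other myeloid cells and between -0.47 and 0.67 in Plac8/Ms4a4c cells.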

How the data were processed

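Single-cell RNA libraries of 3 HFD and 3 Control samples were deposited by the authors as 1 matrix per sample of whole-number UMI counts for 33456 genes, without normalization. The submitters' processing notes name Cell Ranger, Seurat 2.4 and build mm9, with no role or settings. Entries with at least 200 genes and at most 10% mitochondrial UMIs were kept, which removed 109, and each barcode was counted in the sample where it had most UMIs. No doublet caller was run and all cells stayed in. The members and the gene lists were chosen with earlier results of these data known.

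UMI counts were summed per sample over the members and over other myeloid cells, and tested as HFD minus Control with edgeR 4.0.16 (quasi-likelihood, TMM, filterByExpr) in R 4.3.3, with Benjamini-Hochberg adjustment at 0.05. Differences between both populations were tested as an interaction with sample as a block, and again with limma 3.58.1. DESeq2 1.42.0 was an alternative. Levels and counts without 5 cells of other lineages, and list counts without the genes of the rule, were added after seeing the data. No replicate pair agreed within sampling noise, which for sums of different cells does not tell whether the samples came from separate animals. The tests were checked on simulated data. Since no gene passed, the 10 genes with the smallest p were named. Also named were up to 4 genes of smallest p of each list, 12 genes over and 8 under other myeloid cells, 8 interaction genes of smallest p and the marker lists; not all are reported. Ptprc, Ms4a6c, Lyz2, Cebpb, Spi1, Lpl, Ly6i, Ccl17, further genes called by the interaction test and the small per-cell gene sets were chosen after their values were seen. Levels of genes with near-identical copies (Cd209 family, H2 genes, Ly6 and Ms4a families, Lyz1) are uncertain.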

Additional observations from a re-analysis of the deposited data

Results flagged for a closer look

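For 8 genes the HFD minus Control difference was not the same in Plac8/Ms4a4c cells and other myeloid cells by the interaction test in edgeR, and these are the genes with the smallest p. The log2 difference between both changes was 1.79 for Il1b and 2.54 for Ptgs2, where many cells contributed: the largest cell held 140 of 1006 HFD UMIs of Il1b and 15 of 80 of Ptgs2. For Il6, the cytokine interleukin 6, it was 4.56, with 16 UMIs in HFD and 27 UMIs in Control Plac8/Ms4a4c cells, while other myeloid cells averaged 5.39 ± 1.03 CPM in HFD and 184 ± 38 CPM in Control (SD, n = 3 each). For Spp1, the secreted protein osteopontin, it was -3.58, and 1 cell held 51 of the 67 Control UMIs.

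For the other 4, UMIs of the largest cell are given too. For Cxcl13, a B cell attractant, the value was 5.19 and 1 cell of HFD 3 held 55 of 58 HFD UMIs. For Slpi, a protease inhibitor, it was 2.98 and 1 cell held 130 of 141 HFD UMIs. For Mt2, a metallothionein, it was 3.50 and 1 cell held 41 of 102 HFD UMIs. Without the 5 cells of other lineages Mt2 stood at 25.1, 23.5 and 23.6 CPM in HFD, against 42.3 and 23.9 CPM in Control 1 and 2 and 0 in Control 3. For Iglc2, an immunoglobulin light chain segment, it was -13.27, with 0 UMIs in HFD and 349 of 447 Control UMIs in 1 cell; a fitted value against 0 is no bound. Over all 97 called genes, 1 cell held over 50% of all UMIs of the Plac8/Ms4a4c cells for 15.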

How the results depend on the processing

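The count of genes differing between HFD and Control in Plac8/Ms4a4c cells was 0 in edgeR and also with DESeq2's size factors, with Ear2 neighbours counted as members, with at most 5% mitochondrial UMIs and with barcodes of exactly 1 sample. It was 88 without the filter on low counts, 6 in DESeq2, 4 with all deposited entries, 48 with the rule on thinned counts and 1 with at least 5 UMIs of the pair. Leaving out 1 sample gave 0 to 21, with 21 without HFD replicate 2 and 3 without Control replicate 3. HFD and Control samples of the same replicate number did not deviate together from their diet means (correlations of -0.0415, -0.127 and -0.238). Sums of so few cells are noisy, so this does not tell whether the numbers pair the samples. The fit with the replicate block called 0. Of 152 alternative values of the 10 named genes none turned, and 28 passed the threshold.

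The interaction count of 97 among 7781 genes was 43 with barcodes of exactly 1 sample and 51 with Ear2 neighbours as members. It was 0 in limma, which tested only 1240 genes. With 1 sample left out it was 51 to 131 (51 without Control replicate 1, 63 without HFD replicate 1). Of 108 alternative values of its 8 named genes, 12 no longer passed and 2 turned: Cxcl13 was -0.75 with the rule on thinned counts and Spp1 6.92 with barcodes of exactly 1 sample. Without HFD replicate 3, Cxcl13 was 1.56 and Slpi 0.56. The share difference, HFD minus Control, of -0.367 percentage points was 3.03 with barcodes of exactly 1 sample, and -0.828 to 0.34 with 1 sample left out. The causes were not tested. In simulated sums of these sizes edgeR recovered 25% of 2-fold and 93% of 4-fold changes in the diet test. The interaction test recovered only 2% of 2-fold and 19% of 4-fold changes.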

Other observations

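Plac8/Ms4a4c cells differed from the 28 Ear2 neighbours, which met every part of the rule except the limit on Ear2, in nonclassical genes. Ace, the angiotensin-converting enzyme, averaged 12.1 CPM over the 6 sums of Plac8/Ms4a4c cells and 172 CPM over those of the Ear2 neighbours. Treml4, a receptor of nonclassical monocytes, averaged 19.5 CPM in Plac8/Ms4a4c cells and 152 CPM in the Ear2 neighbours. Classical monocyte genes went both ways. Ly6c2 averaged 338 CPM in Plac8/Ms4a4c cells and 148 CPM in the Ear2 neighbours, while Chil3 averaged 473 CPM in Plac8/Ms4a4c cells and 742 CPM in the neighbours, and Clec4e 365 CPM in Plac8/Ms4a4c cells and 743 CPM in the neighbours. Il1b was high in both, at 3438 CPM in Plac8/Ms4a4c cells and 4634 CPM in the Ear2 neighbours. These are descriptions, with no test, and rest on 3 to 6 neighbours a sample.

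Some signals came from few cells. Ly6i, a relative of Ly6c2, stood at 431, 0 and 784 CPM in HFD 1, 2 and 3, against 74.8, 7.75 and 0 CPM in Control 1, 2 and 3, and was found in 9 HFD cells and 3 Control cells. Ccl17, a chemokine of dendritic cells, stood at 1496 CPM in Control 2, where 1 cell gave 188 of the 196 Control UMIs. Ly6i and Ccl17 were chosen after their values were seen. Among immediate early genes, Ier2 stood at 1160, 906 and 1281 CPM in HFD, against 648, 651 and 699 CPM in Control Plac8/Ms4a4c cells, while it fell in other myeloid cells, by 0.40 on the log2 scale. The difference between both changes was 1.13 (edgeR adjusted p = 0.0170, limma adjusted p = 0.162).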
